A study of Homo sapiens with 24 samples.

Results

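Radiation alone (RT) was compared with no treatment in spheroids of FaDu, an established human cell line from a squamous cell carcinoma of the hypopharynx. The comparison holds 6 of the 24 RNA-Seq libraries of the series, taken by their labels as 3 control and 3 RT libraries. In the study, FaDu cells and SAS cells, a line from a tongue carcinoma, were grown into spheroids and exposed to heat, irradiation or both, and each treatment was set against the control of its own spheroid type. FaDu controls received neither heat nor irradiation, and FaDu RT spheroids received a single dose of 7 Gy. RNA of all groups was collected 0.5 h after treatment, so the comparison asks which transcripts differ within that time when no heat is given. A further 12 libraries, 3 per group, serve for comparison: FaDu spheroids heated at 42.5 °C for 60 min without (HT) or with 7 Gy (HT + RT), and SAS spheroids without treatment or after 10 Gy. Each spheroid was grown from 1 line and holds no vessels, stroma or immune cells, and cells of its rim and core were measured together.

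Ionizing radiation breaks DNA, and the kinase ATM and the transcription factor p53 relay the damage to genes of cell cycle arrest and repair, most of which build up over hours. Within minutes, irradiated cells also activate MAP kinases and NF-kappaB, which switch on immediate early genes such as FOS, JUN and EGR1 from factors already present in the cell. Many immediate early transcripts are short-lived, and several encode the phosphatases and inhibitors that end the same signals.

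The 3 control libraries held 17690374, 17763912 and 21862472 counts and the 3 RT libraries 18149790, 16666024 and 23481395, in the order of their replicate numbers. The 12 comparison libraries held from 15203484 to 29452514. Of 57500 genes in the table, 32294 had at least 1 count in the 6 libraries and 15552 had enough counts to be tested. Levels are given as CPM, a gene's share of its library's counts on a fixed scale, corrected for library composition. The squamous markers KRT5 (3987 CPM in the controls, 3863 after RT), KRT17 (4597 and 4771 CPM) and TP63 (265 and 258 CPM) were high, as the label of the line implies. Of 6 fibroblast markers, COL1A1 had 44.7 CPM in the controls and 44.9 CPM after RT, LUM had no count in any of the 6 libraries, and COL1A2, COL3A1, DCN and PDGFRB were near 0. The leukocyte list summed to 2.18, 1.63 and 2.68 CPM in the controls and 2.09, 1.95 and 2.34 CPM after RT, nearly all of it CD68, and the leukocyte antigen PTPRC was at 0.126 and 0.061 CPM. The endothelial list summed to 8.16, 9.31 and 8.25 CPM in the controls and 7.08, 7.45 and 8.71 CPM after RT, with CDH5 its most abundant gene.

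Replicate number 1 stood apart from numbers 2 and 3 in both groups. On the first principal component, with 44.9% of the variance, control 1 lay at -29.5 and RT 1 at -27.6, while the other 4 libraries lay between 11.5 and 19.1. The second component, with 19.8%, separated the groups: the controls lay at -18.5, -8.31 and -10.04 and the RT libraries at 20.9, 10.9 and 5.03. The spread within a group exceeded sampling noise: chi-square values of replicate pairs were 3.55 to 16.4 a gene where counting error alone gives 1. The p-values and SE below rest on the spread between these samples, which the fit estimates for each gene partly from all genes. Same-numbered libraries deviated from their group means in like directions, with correlations across the tested genes, which are not independent replicates, of 0.52, 0.31 and 0.19 for numbers 1, 2 and 3. Beside these, RT 3 had a correlation of 0.20 with control 2 and RT 2 had 0.25 with control 3, so the numbers set replicate 1 apart more than they tell 2 from 3. The comparison was therefore fitted without and with the replicate number as a block, which compares each RT library with the control of its number, and both are given. The libraries come from independent experiments, but the sources do not say whether libraries of the same number share an experiment. The pairing is therefore an assumption, and the results with the block rest on it. For genes whose pairs differ widely, such as FOS, EGR1 and DUSP1 below, the SE with the block is smaller than their pairs alone would give.

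**Figure D1:**
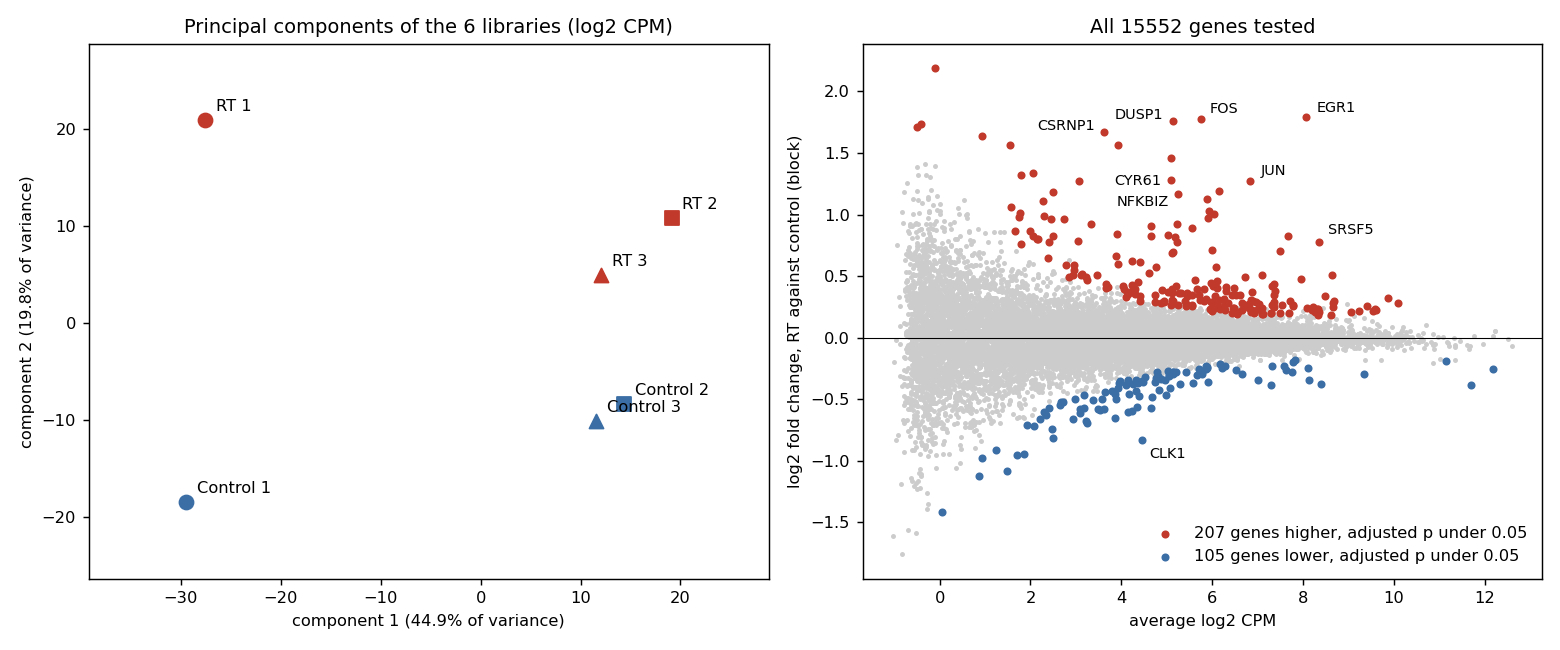
The left panel places the 6 libraries on the first principal components of log2 CPM, with symbols for the replicate number and colors for control (blue) and RT (red). Control 1 and RT 1 lie apart on component 1, and the RT libraries lie above the controls on component 2. The right panel shows the log2 fold change with the block against the average log2 CPM of each of the 15552 genes tested, with 207 genes higher and 105 lower at an adjusted p under 0.05.

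After 7 Gy, 22 of 29 tested immediate early genes, most of which encode transcription factors, were higher in FaDu spheroids when the replicate number was a block, beside 1.33% of all genes tested. So were 6 of 20 chemokines and cytokines, 7 of 18 MAP kinase phosphatases and Sprouty genes, 6 of 32 p53 targets and 3 of 22 NF-kappaB genes. None of the 31 members of the G2 and mitosis list or the 20 of the G1/S list passed. Without the block, 5 genes (0.0322% of those tested) had an adjusted p under 0.05, all higher after RT, and 1 of them, NFKBIZ, was also over 2-fold (0.00643%). With the block, 312 genes passed (2.01%), of which 207 were higher (1.33%) and 105 lower (0.675%), and 28 passed with over 2-fold (0.18%), 25 higher and 3 lower. At an unadjusted p under 0.05 there were 791 genes without the block (5.09%) and 1630 with it (10.5%). The calls with the block depend on the fit: 103 of the 312 passed with DESeq2 and the block, and 106 when all 12 FaDu libraries were fitted together with it. With DESeq2 and no block, 67 genes passed. Below, a gene is said to rise or fall when its adjusted p in edgeR with the block was under 0.05. A gene past the same threshold in edgeR without the block is said to pass both fits. Where no tool is named, passing refers to edgeR. Since the samples are bulk RNA, less RNA per cell and fewer cells with that RNA cannot be told apart.

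The 5 genes that passed both fits encode regulators of inflammatory signaling, cytokine action and transcription. NFKBIZ (ENSG00000144802), a nuclear partner of NF-kappaB, was at 21.7, 24.7 and 22.1 CPM in controls 1 to 3 and at 54.9, 51.7 and 48.1 CPM in RT 1 to 3. The lowest RT library lay far above the highest control, and the log2 fold change was 1.17 ± 0.09 (SE, n = 3 and 3, adjusted p 0.00497). CXCL8 (ENSG00000169429), the neutrophil chemokine interleukin 8, was at 48.4, 45.1 and 47.4 CPM in the controls and at 75.4, 77.4 and 78.0 CPM after RT. Its replicates lay close together within each group and the groups were far apart, with a log2 fold change of 0.71 ± 0.06 and an adjusted p of 0.00501. MAFF (ENSG00000185022), a small Maf transcription factor, was at 31.9, 34.1 and 29.7 CPM in the controls and at 61.8, 59.2 and 56.8 CPM after RT (log2 fold change 0.89 ± 0.08, adjusted p 0.00657). PIM1 (ENSG00000137193), a serine/threonine kinase made in response to cytokines, was at 17.8, 18.7 and 16.3 CPM and at 31.4, 30.8 and 31.2 CPM (0.82 ± 0.08, adjusted p 0.016). ZC3H12A (ENSG00000163874), an RNase that degrades cytokine transcripts, was at 23.0, 27.4 and 25.7 CPM and at 43.8, 47.8 and 43.3 CPM (0.82 ± 0.09, adjusted p 0.0219). In none of the 5 did a control overlap an RT library, and replicate 1 was not set apart from the others as it was in the whole profile. The call without the block rests on few libraries: no gene passed without control 3 or without RT 2, and 1 gene passed without RT 3. Without control 2, 4 genes passed, 3 of them among the 5. Without control 1, 8 passed, and without RT 1, 24.

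**Figure D2:**
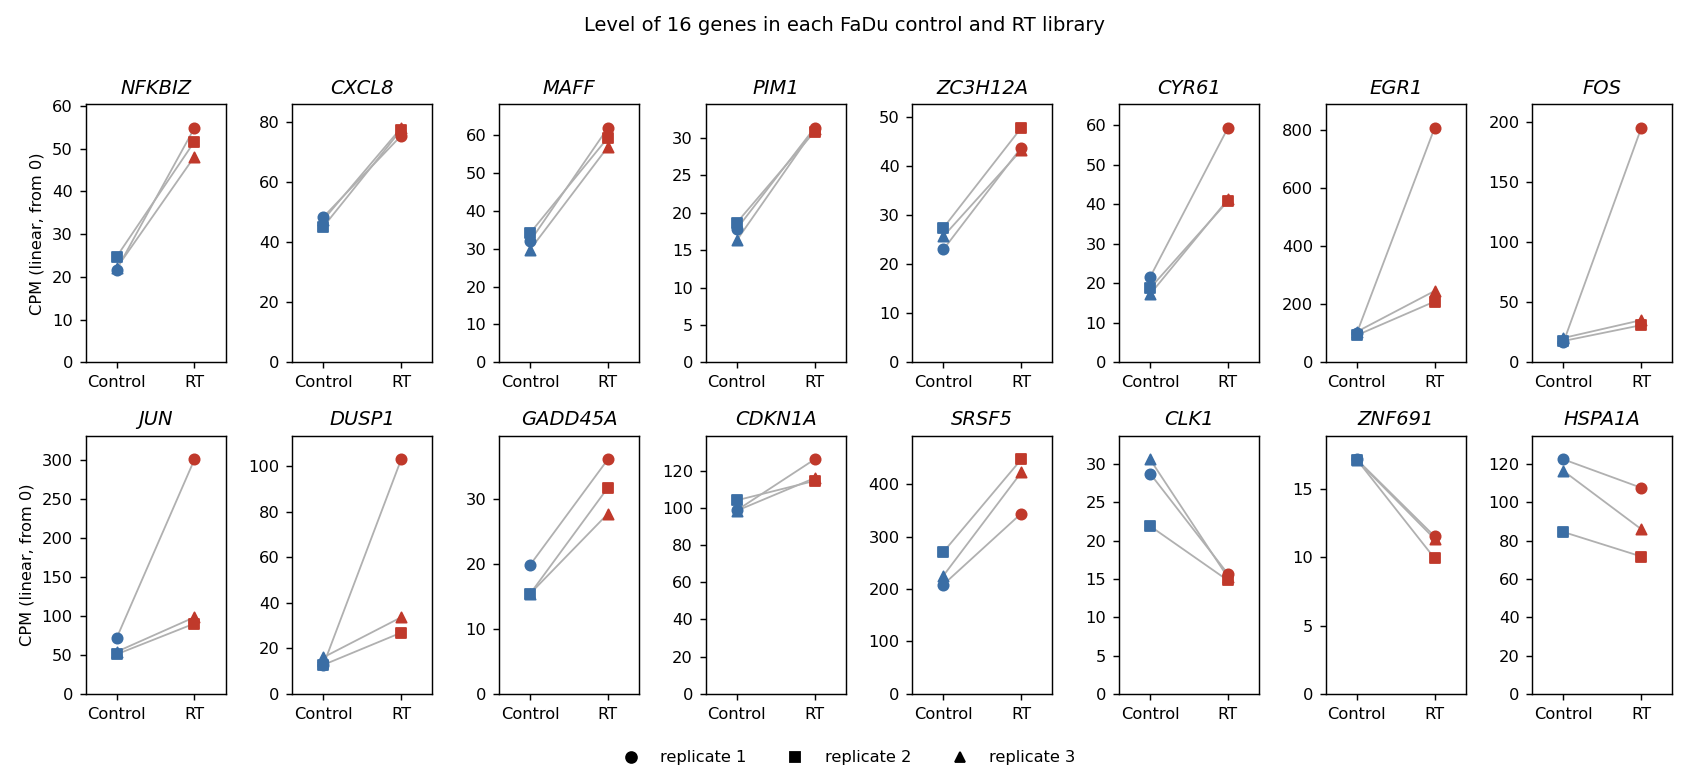
Level in CPM, on linear axes that start at 0, of 16 genes in each FaDu control (blue) and RT (red) library. Symbols mark the replicate number and gray lines join libraries of the same number. NFKBIZ, CXCL8, MAFF, PIM1 and ZC3H12A have narrow groups that do not overlap, while EGR1, FOS, JUN and DUSP1 have 1 RT library, replicate 1, far above the others.

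The promoters of 6 genes that rose are printed to show examples of the motifs searched, with 1 kind of motif for each gene in capitals and the rest in lower case, 5′ to 3′. They come from the RefSeq promoter table of GRCh38.p14 and run from 250 bases before to 50 bases after the annotated start site. NFKBIZ (chr3:101827740-101828039, plus strand) and CXCL2 (chr4:74099146-74099445, minus strand) hold the NF-kappaB letters (GGG, any 2 bases, then TTTCC), CXCL8 (chr4:73740319-73740618, plus strand) holds the AP-1 letters TGANTCA, MAFF (chr22:38201744-38202043, plus strand) and PPP1R15A (chr19:48872171-48872470, plus strand) hold the cyclic AMP response element (CRE) TGACGTCA, and EGR1 (chr5:138465229-138465528, plus strand) holds CArG boxes, the motif of serum response factor.
NFKBIZ: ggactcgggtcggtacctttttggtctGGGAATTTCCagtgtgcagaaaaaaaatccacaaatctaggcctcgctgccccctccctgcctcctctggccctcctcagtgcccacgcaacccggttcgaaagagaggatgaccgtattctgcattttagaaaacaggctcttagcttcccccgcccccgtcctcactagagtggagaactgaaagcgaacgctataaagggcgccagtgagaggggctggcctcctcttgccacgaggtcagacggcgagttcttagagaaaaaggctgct
CXCL2: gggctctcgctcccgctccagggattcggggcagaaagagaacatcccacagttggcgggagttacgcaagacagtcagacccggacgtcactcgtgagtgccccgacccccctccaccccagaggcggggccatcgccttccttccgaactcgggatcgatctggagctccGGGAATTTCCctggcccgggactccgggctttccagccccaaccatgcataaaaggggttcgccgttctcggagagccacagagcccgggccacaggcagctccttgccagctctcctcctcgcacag
CXCL8: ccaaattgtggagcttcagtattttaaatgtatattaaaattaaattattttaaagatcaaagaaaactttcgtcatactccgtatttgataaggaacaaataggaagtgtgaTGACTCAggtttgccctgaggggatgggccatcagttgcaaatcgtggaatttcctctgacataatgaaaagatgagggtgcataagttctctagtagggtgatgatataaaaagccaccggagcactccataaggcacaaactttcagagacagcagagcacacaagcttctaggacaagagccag
MAFF: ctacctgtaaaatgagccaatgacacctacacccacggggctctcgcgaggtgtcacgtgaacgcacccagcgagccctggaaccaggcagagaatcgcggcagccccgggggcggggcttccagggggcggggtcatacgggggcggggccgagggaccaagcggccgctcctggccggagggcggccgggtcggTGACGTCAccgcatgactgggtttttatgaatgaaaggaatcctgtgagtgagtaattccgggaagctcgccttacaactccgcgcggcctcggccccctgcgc
PPP1R15A: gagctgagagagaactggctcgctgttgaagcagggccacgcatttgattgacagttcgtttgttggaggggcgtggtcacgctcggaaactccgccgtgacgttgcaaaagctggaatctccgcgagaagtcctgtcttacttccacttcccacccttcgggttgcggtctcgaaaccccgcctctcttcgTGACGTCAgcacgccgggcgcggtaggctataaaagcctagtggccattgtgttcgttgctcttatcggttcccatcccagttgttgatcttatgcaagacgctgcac
EGR1: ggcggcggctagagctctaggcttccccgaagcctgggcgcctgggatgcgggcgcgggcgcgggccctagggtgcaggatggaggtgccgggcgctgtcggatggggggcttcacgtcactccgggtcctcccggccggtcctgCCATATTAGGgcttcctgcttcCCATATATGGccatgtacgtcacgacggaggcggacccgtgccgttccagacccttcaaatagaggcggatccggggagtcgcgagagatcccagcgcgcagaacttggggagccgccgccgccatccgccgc
With the start site counted as 0, the capitals begin at -223 in NFKBIZ, -78 in CXCL2, -137 in CXCL8, -54 in MAFF, -58 in PPP1R15A and at -105 and -83 in EGR1. The letters TATAAA, left in lower case, begin at -29 in NFKBIZ, -31 in CXCL8 and -30 in PPP1R15A.

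Motifs were searched on both strands, TATAAA on the gene's own strand alone. The promoter table matched 159 of the 207 genes that rose, 80 of the 105 that fell and 11362 of the genes tested, and it holds 35114 promoters in all. The CRE letters were in 15 of the 159 promoters of genes that rose (9.43%), in 3.31% of the tested genes' promoters and in 1.85% of all promoters. Besides MAFF and PPP1R15A they were found in DUSP1, EPHA2 and GPR3. The NF-kappaB letters were in 11 of the 159 (6.92%), against 2.15% and 1.91%, and included NFKBIZ, NFKBIA and TNFAIP3 as well as CXCL1 and CXCL2. The TATA letters TATAAA were in 25 (15.7%), against 3.74% and 7.33%, among them FOS, FOSB, JUNB, DUSP1 and ZC3H12A. The AP-1 letters were in 5.03% of the promoters of genes that rose, 4.78% of tested and 7.71% of all, and CArG boxes in 1.26%, 1.08% and 1.29%. Of the 80 promoters of genes that fell, 1.25% held the CRE letters, 1.25% the NF-kappaB letters and 2.5% the TATA letters. A match describes the letters in this window and no more.

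Immediate early genes were the list with the most members that rose. Most encode transcription factors, and ZFP36 and IER3 are among those that do not. With the block, 22 of 29 tested members rose and none fell, 10 of them by over 2-fold, and their median log2 fold change was 0.78 with the block and 0.80 without it, beside -0.0016 over all genes tested. With edgeR and no block MAFF alone passed, although 28 of the 29 members had a positive log2 fold change. With DESeq2 and no block, CSRNP1 (adjusted p 1.62e-10), FOSB (1.74e-08), NR4A1 (8.27e-08), ATF3 (0.000224), KLF10 (0.000438) and KLF6 (0.0088) were among those that passed. Among those that did not were EGR1 (0.204), JUN (0.675) and FOS (0.526). EGR1, a zinc finger factor induced by MAP kinase signaling, was at 101, 93.4 and 105 CPM in the controls and at 807, 209 and 246 CPM after RT. FOS, a subunit of AP-1, was at 16.8, 17.9 and 20.4 CPM in the controls and at 195, 31.0 and 35.2 CPM after RT. JUN, its partner, was at 71.7, 50.9 and 54.1 CPM in the controls and at 301, 90.4 and 98.5 CPM after RT. In all 3 genes each RT library was above each control, and RT 1 was well above RT 2 and RT 3. FOSB was at 4.81, 8.55 and 8.34 CPM and at 30.03, 19.6 and 16.9 CPM, and CSRNP1 at 4.64, 7.02 and 5.08 CPM and at 24.4, 14.6 and 15.4 CPM. IER2, a short-lived nuclear protein, was at 44.0, 34.0 and 41.3 CPM and at 167, 63.3 and 67.7 CPM, again highest in RT 1.

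With the block, the log2 fold change was 1.79 ± 0.17 for EGR1, 1.78 ± 0.25 for FOS, 1.67 ± 0.15 for CSRNP1, 1.56 ± 0.16 for FOSB, 1.27 ± 0.12 for JUN and 1.19 ± 0.12 for IER2. ATF3, a stress-induced repressor, rose by 1.18 ± 0.16 and the mRNA-binding protein ZFP36 by 1.03 ± 0.11, as did KLF2 (1.32 ± 0.23) and the survival factor IER3 (1.001 ± 0.08). The other members that rose were NR4A1 (0.97), EGR4 (0.86), JUNB (0.83), KLF6 (0.78), KLF10 (0.71), EGR3 (0.59), NR4A2 (0.59), FOSL1 (0.51), JUND (0.39), KLF4 (0.31), IER5 (0.30) and MAFF (0.89). EGR2 (0.63, adjusted p 0.111), FOSL2 (0.14), MYC (0.03), NR4A3 (0.28), BTG2 (0.05), SNAI1 (0.12) and CEBPB (-0.07) did not pass. The list's summed level was 1498, 1388 and 1450 CPM in the controls and 3725, 1850 and 2034 CPM after RT. The rise was thus present in every RT library but far larger in RT 1: the median over members was 1.30 in pair 1, 0.52 in pair 2 and 0.55 in pair 3.

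Replicate 1 and the tool both bear on these sizes. Without replicate 1, the log2 fold change with the block was 1.19 for EGR1, 0.79 for FOS, 0.84 for JUN, 0.42 for JUNB and 0.80 for IER2, and 17 of the 22 members still passed. The 5 that did not were KLF2, EGR4, IER5, EGR3 (0.28) and NR4A2 (0.32). These fits leave 2 pairs, and their p-values can be smaller than those of all 3. For JUN the adjusted p with the block was 2.55e-27 without replicate 1, against 1.27e-08 with all 3 pairs. Passing without a replicate number, here and below, is thus no measure of how well the pairs agree. Without the block and RT 1 alone, the median was 0.50, and IER3 was 0.54, ZFP36 0.70, KLF2 0.63, KLF6 0.51, FOSL1 0.23 and KLF4 0.17. With DESeq2 and the same block 10 members passed, while EGR1 (adjusted p 0.16), JUN (0.155), FOS (1), FOSB, JUNB, IER2, ZFP36, NR4A1, NR4A2, EGR3, EGR4 and IER5 did not. With all 12 FaDu libraries and the block 16 passed, and JUNB, ATF3, KLF2, EGR3, NR4A2 and FOSL1 did not. What set RT 1 apart was not tested.

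**Figure D3:**
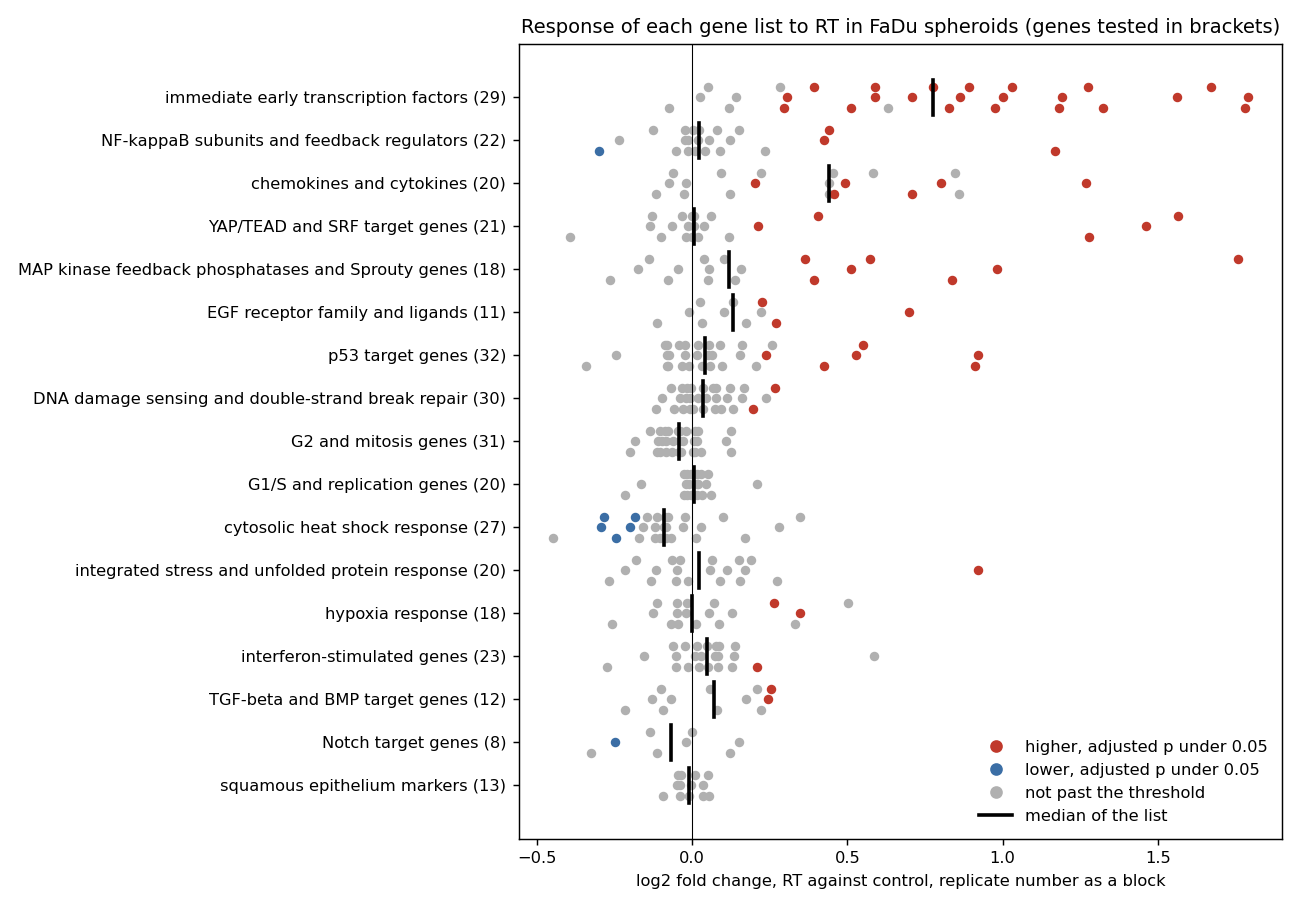
Each point is a tested member of a gene list, placed at its log2 fold change after RT with the replicate block, red or blue where the adjusted p was under 0.05 and gray otherwise, and the black bar is the list's median. The immediate early list (median 0.78) and chemokines and cytokines (median 0.44) are displaced to the right, and the cell cycle lists are centered near 0.

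Among NF-kappaB subunits and feedback regulators, NFKBIZ, NFKBIA and TNFAIP3 rose. They are 3 of 22 tested members, 1 fell with the block, and the list's median was 0.02. NFKBIA, the inhibitor that binds NF-kappaB in the cytoplasm, was at 138, 143 and 128 CPM in the controls and at 172, 190.4 and 193 CPM after RT. TNFAIP3, a ubiquitin-editing inhibitor of the pathway, was at 62.5, 51.0 and 47.7 CPM and at 73.5, 70.1 and 71.5 CPM. Neither gene's groups overlapped, and the changes of 0.44 ± 0.05 and 0.42 ± 0.06 were smaller than that of NFKBIZ. TRAF2, an adaptor of TNF receptors, fell by 0.30 on the log2 scale, and MAP3K14, the kinase of the noncanonical arm, which was chosen after its values were seen, fell by 0.37. With the block, TRAF2 did not pass with DESeq2 (adjusted p 0.145), nor TNFAIP3 with all 12 FaDu libraries (0.585).

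Of 20 tested chemokines and cytokines, 6 rose and none fell, with a median of 0.44 with the block. Without the block the median was 0.42, or 0.23 without RT 1. CXCL2, which attracts neutrophils, was at 4.19, 5.39 and 4.59 CPM in the controls and at 8.40, 12.8 and 13.02 CPM after RT (1.27 ± 0.13). CXCL1 was at 73.0, 91.1 and 91.3 CPM and at 99.4, 123 and 138 CPM (0.49 ± 0.05), and CXCL3 rose by 0.80 ± 0.18. Reads of these 3 closely related genes can be shared, so their split is uncertain. The IL6 family cytokine LIF rose by 0.46 ± 0.06 and the alarmin IL1A by 0.20 ± 0.05. Without replicate 3, CXCL3 and IL1A did not pass, nor did IL1A without replicate 1. Without the block and RT 1, LIF was 0.23 and IL1A 0.10. IL6 itself was at 1.68, 1.09 and 1.11 CPM and at 3.95, 1.03 and 2.26 CPM, and did not pass (adjusted p 0.139). Neither did CCL20 (0.86, adjusted p 0.0759) or IL1B (-0.12, adjusted p 0.411). SOCS3, an inhibitor of cytokine receptor signaling, was at 37.7, 30.6 and 32.8 CPM and at 143, 47.7 and 54.2 CPM, with 1.12 ± 0.12 and 0.68 without replicate 1. With DESeq2 and the block, SOCS3 (adjusted p 0.41), CXCL3 and IL1A did not pass.

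Of 18 tested MAP kinase phosphatases and Sprouty genes, which dampen MAP kinase signaling, 7 rose and none fell, with a median of 0.12 with the block. None passed without the block, and 2 passed with it when all 12 FaDu libraries were fitted together. DUSP1, a nuclear phosphatase of JNK and p38, was at 12.6, 12.7 and 16.1 CPM in the controls and at 103, 26.9 and 33.7 CPM after RT. All RT libraries lay above all controls, with RT 1 far above the rest, and the log2 fold change was 1.76 ± 0.18, or 1.07 without replicate 1. DUSP1 did not pass with DESeq2 and the block (adjusted p 0.34), nor did DUSP2 or SPRY2. In the fit of 12 libraries DUSP1 and DUSP6 passed. DUSP2 (0.98 ± 0.23), DUSP6 (0.84 ± 0.10), ERRFI1 (0.57 ± 0.08), SPRY2 (0.51 ± 0.13), DUSP5 (0.39 ± 0.07) and DUSP4 (0.36 ± 0.07) also rose. Without replicate 1, DUSP2 (0.50, adjusted p 0.617), DUSP5 (0.26, adjusted p 0.0604) and SPRY2 did not pass, and without RT 1 and the block DUSP4 had -0.13. For DUSP6, an ERK phosphatase, the controls were at 18.9, 5.72 and 6.55 CPM and the RT libraries at 34.5, 11.1 and 10.7 CPM, so that the groups overlap and the difference shows within each replicate number. Without the block, DUSP6 was 0.07 without RT 1 and 1.60 without control 1. Without the block and without RT 1, the list's median was 0.0027, and without control 1 it was 0.40.

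Of 11 tested members of the EGF receptor family and its ligands, 3 ligands rose and no receptor passed. Of all genes tested, 1.33% rose. HBEGF was at 28.96, 23.1 and 25.2 CPM in the controls and at 60.8, 33.1 and 35.6 CPM after RT (0.70 ± 0.08). AREG (0.27 ± 0.05) and EREG (0.23 ± 0.05) rose less, and EGFR itself was at 490.1, 527 and 518 CPM and at 622, 586 and 532 CPM (0.17 ± 0.05, adjusted p 0.083). Without replicate 1, EREG did not pass. Without the block, AREG was 0.08 without RT 1 and 0.47 without control 1, and HBEGF was 0.41 without RT 1.

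Of 21 tested targets of YAP/TEAD and serum response factor, 5 rose and none fell, beside 1.33% of all genes tested that rose. The list's median was 0.0052, or -0.02 without the block and RT 1. CYR61 (CCN1), a secreted matrix protein, was at 21.6, 18.8 and 17.3 CPM in the controls and at 59.4, 40.8 and 41.3 CPM after RT. It had the smallest p of all genes with the block, 1.28 ± 0.08, and narrowly missed without it (adjusted p 0.054). RHOB, a short-lived small GTPase, was at 16.2, 15.6 and 18.8 CPM and at 77.1, 36.0 and 35.8 CPM (1.46 ± 0.13). CTGF (CCN2) was low, at 0.67, 1.31 and 2.10 CPM and at 4.34, 4.42 and 3.60 CPM (1.56 ± 0.26), and AMOTL2 (0.40 ± 0.05) and F3 (0.21 ± 0.05) rose less. F3 did not pass without replicate 1, without replicate 2 or with DESeq2 and the block, and had -0.18 without RT 1 and the block.

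Of 32 tested p53 targets, 6 rose with the block and none fell, with a median of 0.04. GADD45A, a stress sensor that p53 and other factors induce, was at 19.8, 15.4 and 15.4 CPM in the controls and at 36.1, 31.8 and 27.8 CPM after RT. Its groups did not overlap, and its log2 fold change was 0.91 ± 0.08. CDKN1A, the cell cycle inhibitor p21, was at 98.7, 104 and 98.4 CPM in the controls and at 126, 115 and 116 CPM after RT. The groups were apart but by a small step, 0.24 ± 0.05 with an adjusted p of 0.0102. MDM2, the ubiquitin ligase of p53, was at 67.5, 73.9 and 74.0 CPM and at 73.8, 84.1 and 72.7 CPM, with overlapping groups (0.09 ± 0.06, adjusted p 0.646). The Polo-like kinases PLK3 (0.92 ± 0.13) and PLK2 (0.53 ± 0.08), the BH3 protein BBC3 (0.55 ± 0.13) and SERTAD1 (0.42 ± 0.07) made up the rest of those that rose. CDKN1A and BBC3 did not pass without replicate 1, nor with DESeq2 and the block (adjusted p 0.149 for CDKN1A). PLK3, PLK2 and GADD45A are also known as immediate early or general stress genes.

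Genes of DNA repair and of the cell cycle lists are given beside the 2.01% of all genes tested that passed with the block. Of 30 tested genes of damage sensing and double-strand break repair, 2 rose, the median was 0.03, and both are close to the threshold. Without the block and RT 1, the list's median was -0.03. BRCA1 was at 84.3, 84.7 and 85.1 CPM in the controls and at 99.2, 97.2 and 95.4 CPM after RT (0.20 ± 0.05, adjusted p 0.047). ATM was at 38.5, 36.9 and 39.7 CPM and at 51.5, 48.2 and 40.3 CPM (0.27 ± 0.07, adjusted p 0.0472). BRCA1 did not pass when any 1 of the replicate numbers was left out, nor ATM without replicate 1 or 2, and with the block neither passed with DESeq2 or with all 12 FaDu libraries in 1 fit. None of 31 tested G2 and mitosis genes (median -0.04) and none of 20 G1/S and replication genes (median 0.0066) passed. Lists of this size cannot tell no call from the share over all genes. Without replicate 3 and with the block, 2 G2 and mitosis genes passed as higher. The G2 and mitosis median without the block was -0.09 without RT 1 and 0.0051 without control 1, and the G1/S median ranged from -0.02 to 0.02 when 1 library was left out. CCNB1, the mitotic cyclin, was at 245, 200.5 and 203 CPM and at 227, 203 and 205 CPM, and the mitotic kinase PLK1 at 177, 148 and 152 CPM and at 164, 135 and 151 CPM. Outside the lists, GTSE1 (-0.23 ± 0.05) and SKP2 (-0.28 ± 0.06), both active in the cell cycle and chosen after their values were seen, fell. GTSE1 did not pass without replicate 2, nor SKP2 without replicate 1.

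The other stress and signaling lists below had 1 or 2 members that passed with the block, where 2.01% of all genes tested passed. Their shares were not tested against that of all genes. PPP1R15A, the phosphatase subunit that reverses the block of translation by eIF2 phosphorylation, was at 26.7, 22.2 and 25.3 CPM in the controls and at 62.7, 38.6 and 42.1 CPM after RT (0.92 ± 0.08). It was the only 1 of 20 tested genes of the integrated stress and unfolded protein response to rise with the block, and the median of that list was 0.02. DDIT3 (CHOP) was at 13.5, 12.4 and 11.9 CPM and at 17.2, 13.8 and 12.3 CPM, with overlapping groups. In the hypoxia list ADM (0.35 ± 0.06) and BHLHE40 (0.26 ± 0.05) rose of 18 tested (median -0.0013), in the interferon-stimulated list IRF1 alone (0.21 ± 0.05) of 23 (median 0.05), and in the TGF-beta and BMP list ID1 (0.25 ± 0.07) and TGIF1 (0.24 ± 0.06) of 12 (median 0.07). Of 8 Notch targets HES1 fell (-0.25 ± 0.07, median -0.07), and of 13 squamous markers none passed (median -0.0098). Several of these medians turned with 1 library: without the block, hypoxia had -0.17 without RT 1 and 0.33 without control 1, the interferon list -0.07 and 0.11, the stress response list -0.02 and 0.09, and Notch 0.03 and -0.20. With the block, ID1 (0.08, adjusted p 0.807) and BHLHE40 did not pass without replicate 1. Nor did TGIF1 and HES1 without replicate 2, or IRF1 (0.14) and HES1 (-0.16) without replicate 3. With DESeq2 and the block, ID1 (adjusted p 1), TGIF1, IRF1 and HES1 did not pass. None of the members of the hypoxia, interferon, TGF-beta and Notch lists, ADM (adjusted p 0.17) and BHLHE40 (0.729) included, passed with all 12 FaDu libraries and the block, and without RT 1 and the block BHLHE40 had -0.03.

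Of 27 tested genes of the cytosolic heat shock response, 5 fell with the block, none rose, and the median was -0.09. Of all genes tested, 0.675% fell and 1.33% rose with the block. No member passed without the block. Without the block, the median was -0.15 without RT 1 and -0.04 without control 1. HSPA1A, the inducible Hsp70, was at 122, 84.4 and 116 CPM in the controls and at 108, 71.7 and 85.9 CPM after RT, and HSPA1B at 259.9, 187 and 247 CPM and at 237, 153 and 185 CPM. In both genes the groups overlap and each RT library lay under the control of its number, by -0.29 ± 0.06 and -0.28 ± 0.05. Reads of this nearly identical pair can be shared, so their split is uncertain. CHORDC1 (-0.25), HSPH1 (-0.20) and DNAJA1 (-0.19) fell as well. Without the block, CHORDC1 was -0.05 without control 1 and -0.43 without RT 1, HSPH1 -0.09 and -0.35, DNAJA1 -0.09 and -0.31, HSPA1A -0.19 and -0.45, and HSPA1B -0.18 and -0.46. HSPA6, which is silent without stress, stayed near 0, at 0.56, 0.54 and 0.31 CPM and at 0.82, 0.80 and 0.25 CPM. With the block, none of the 5 passed when all 12 FaDu libraries were fitted together, 2 passed with DESeq2 and 1 without replicate 3, where HSPH1 had -0.125. Another member, DNAJB1, passed as higher without replicate 3 (0.24, adjusted p 0.0156).

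Some genes outside the lists were chosen after their values were seen: SRSF5, SRSF6, CLK4, RSRP1, CCNL1 and DDX5. SRSF5, a serine/arginine-rich splicing factor, was at 208, 271 and 225 CPM in the controls and at 344, 447 and 422 CPM after RT. The groups were far apart, and with 0.78 ± 0.05 it had the third smallest p with the block. SRSF6, of the same family, was at 303, 326 and 328 CPM and at 394, 498 and 480.1 CPM (0.51 ± 0.05). CLK1, a kinase that phosphorylates such factors, was at 28.7, 21.9 and 30.6 CPM in the controls and at 15.6, 14.8 and 15.2 CPM after RT, every RT library below every control (-0.83 ± 0.09). Its relative CLK4 fell by 0.59 on the log2 scale and RSRP1 by 0.47, while CCNL1 (0.35 ± 0.06) and the RNA helicase DDX5 (0.32 ± 0.05) rose. CCNL1 did not pass without replicate 2 (0.21), nor RSRP1 without replicate 3 (-0.21). With the block, CCNL1, RSRP1 and CLK4 did not pass with DESeq2. With the block and all 12 FaDu libraries, CLK1 (adjusted p 0.063), DDX5 (0.0551), CCNL1 (0.178) and RSRP1 (0.146) did not pass. The counts are per gene, so changes in isoforms were not measured.

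Zinc finger genes of the ZNF family made up 22 of the 105 genes that fell (21%), while they are 2.67% of the genes tested. They were singled out after the values were seen and are given as a description. Of 416 tested, 1 rose and 287 had a negative log2 fold change, with a median of -0.09. ZNF691 was at 17.2, 17.2 and 17.1 CPM in the controls and at 11.5, 9.92 and 11.3 CPM after RT (-0.65 ± 0.10), and ZNF780A at 26.4, 27.9 and 32.6 CPM and at 20.6, 20.1 and 18.3 CPM (-0.57 ± 0.09). In both the groups were apart, with every RT library below every control. ZNF572 (-0.68 ± 0.12), ZNF627 (-0.66 ± 0.14), ZNF526 (-0.48 ± 0.08), ZNF397 (-0.56 ± 0.10), ZNF91 (-0.41 ± 0.08), ZNF436 (-0.36 ± 0.09) and ZNF441 (-0.92 ± 0.24) fell too. None of the 22 passed with edgeR and no block. With DESeq2 and no block, ZNF691 (adjusted p 0.00151) and ZNF780A (0.00296) passed. With the block, 6 of the 22 passed with DESeq2, 7 with all 12 FaDu libraries, 13 without replicate 1, 17 without replicate 2 and 12 without replicate 3. The ZNF genes that passed as higher numbered 1, 3 and 5 without replicates 1, 2 and 3. ZNF441 did not pass when any 1 of the replicate numbers was left out, nor ZNF436 without replicate 1.

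Transcripts of the mitochondrial genome, also chosen after their values were seen, differed in both directions. MT-ND4, a subunit of complex I, was at 3241, 4098 and 3664 CPM in the controls and at 2761, 2586 and 3106 CPM after RT, with groups apart (-0.38 ± 0.06). MT-CO1 (-0.26 ± 0.06) and MT-CO3 (-0.19 ± 0.05) fell with overlapping groups. With the block, none of the 3 passed with DESeq2 (adjusted p 0.592 for MT-ND4) or with all 12 FaDu libraries (0.428). Without replicate 2, MT-ND4 had -0.24, and MT-CO1 (-0.14) and MT-CO3 (-0.11) did not pass. Without the block, MT-CO1 was -0.12 without control 2 and MT-CO3 was -0.10. MT-ND4L fell too (-0.30). The transfer RNAs MT-TT (1.01), MT-TF (0.83), MT-TV (0.52) and MT-TY (0.34) rose, and the other mitochondrial genes tested, among them MT-ND1 (0.06) and MT-CYB (-0.10), did not pass. The share of all counts from the mitochondrial genome was 1.98%, 2.77% and 2.49% in the controls and 1.93%, 2.13% and 2.33% after RT, which an exact two-sided permutation test did not separate (p 0.3, where 3 against 3 libraries allow no p under 0.1). Ribosomal protein genes held 5.81% and 5.73% of counts, and replication-dependent histone genes 0.0391% and 0.0389%. Small nucleolar RNAs held 0.00437%, 0.00411% and 0.00457% in the controls and 0.0055%, 0.00656% and 0.00561% after RT, with no overlap (exact p 0.1). SNORD83A (2.188 ± 0.41) and SNORA73B (1.73 ± 0.43) were among the genes over 2-fold higher with the block, at 0.11, 0.27 and 0.45 CPM in the controls and 1.04, 1.26 and 1.59 CPM after RT for SNORD83A. SNORA73B did not pass without replicate 1 or without replicate 2.

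Further genes altered with the block were GPR3 (1.11 ± 0.17), a receptor that raises cyclic AMP, and transcripts of low level or uncertain strand: MT-TT, FAM86B1 (1.71), AC010168.2 (1.34), AC027290.2 (1.64) and the antisense ST7-AS1 (1.06). The 3 altered genes that were lower were ZNF436-AS1 (-1.13), ZKSCAN2-DT (-1.08) and AC068205.2 (-1.42). FAM86B1 did not pass when any 1 of the replicate numbers was left out, nor ST7-AS1 without replicate 2. MT-TT and the 3 lower genes did not pass without replicate 3 (-0.88 for AC068205.2), nor ZKSCAN2-DT and ZNF436-AS1 without replicate 1. With DESeq2 and the block, MT-TT, ST7-AS1, ZKSCAN2-DT and ZNF436-AS1 did not pass. With all 12 FaDu libraries and the block, AC027290.2, FAM86B1, MT-TT and the 3 lower genes did not. Among the other genes that fell, LTO1 was at 172, 169 and 176 CPM and at 128, 138 and 129.7 CPM (-0.39 ± 0.05), and S1PR5, a sphingosine phosphate receptor, at 20.2, 23.4 and 22.0 CPM and at 11.4, 16.1 and 16.03 CPM (-0.60 ± 0.09). ZSWIM3 (-0.81 ± 0.16), LIME1 (-0.74 ± 0.16), ZNF767P (-0.69 ± 0.14), AL355488.1 (-0.72 ± 0.18) and ZC3H6 (-0.63 ± 0.16) completed the genes with the lowest fold changes, and ZBTB3 did not pass (-0.63, adjusted p 0.0579). LIME1 did not pass without replicate 1, AL355488.1 without replicate 2 or 3, or ZC3H6 without replicate 1 or 2, and none of these 5 passed with DESeq2 and the block.

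Called genes were also described by size, overlap and gene structure, and the first 2 follow in part from the choice of genes by their p. Of the 207 that rose, 204 were higher in all 3 pairs of libraries, 164 had groups that did not overlap and 61 changed by over 1.5-fold. Of the 105 that fell the numbers were 102, 82 and 23. Among all tested genes, 896 had every RT library above every control (5.76%) and 771 had every one below (4.96%). Protein-coding genes that rose span a median of 11.3 kb and those that fell 22.2 kb, beside 33.1 kb for all tested. The transcript with the most exons had a median of 5 exons in genes that rose and in genes that fell, and of 10 in all tested. These medians describe GENCODE v29 annotation and were not tested against a background.

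**Figure D4:**
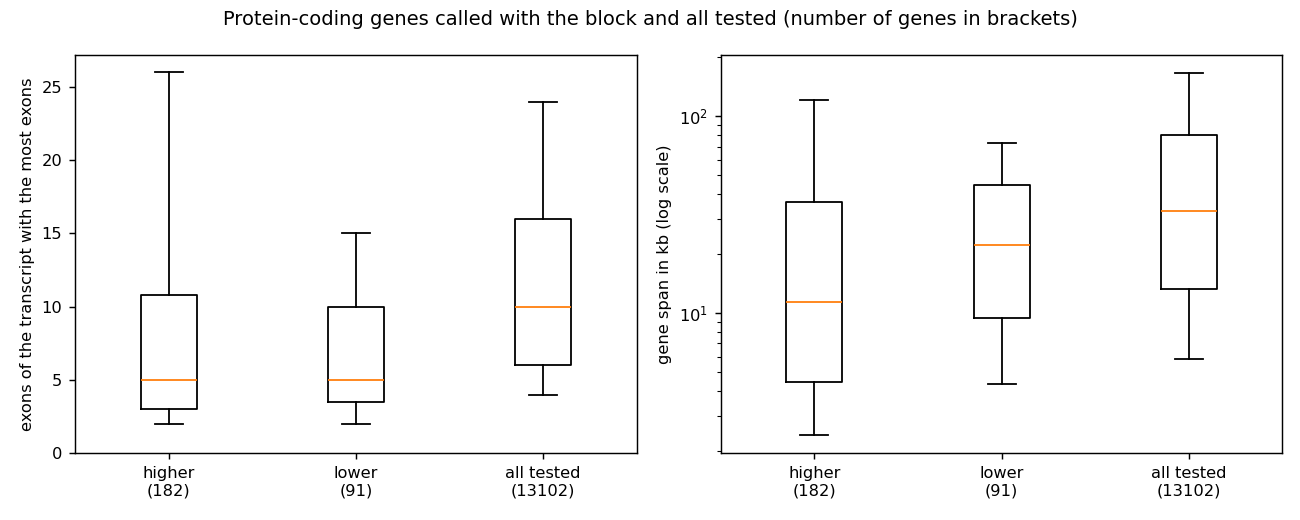
Exon number of the transcript with the most exons (left) and gene span in kb on a log axis (right) for protein-coding genes that rose (182), fell (91) or were tested (13102). Boxes span the 25th to the 75th percentile with the median as a line, and whiskers reach the 10th and 90th percentiles. Called genes in both directions have fewer exons than tested genes, with medians of 5, 5 and 10.

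SAS spheroids after 10 Gy, share no library with FaDu and were given another dose. In SAS, 4 of 14680 tested genes were altered and 11 passed without the block, and with it 185 were higher (1.26%) and 103 lower (0.702%). Of the 202 genes that rose in FaDu and were tested in SAS, 184 were positive there (91.1%) and 79 passed with the block in the same direction. Of 101 that fell, 82 were negative (81.2%), 28 passed in the same direction and 2 in the other, beside 61.9% of like sign over all genes tested in both.

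In SAS, NFKBIZ was at 4.00, 5.50 and 5.999 CPM in the controls and at 9.78, 15.7 and 9.33 CPM after RT, and its log2 fold change of 1.17 ± 0.23 is equal to that in FaDu at this precision. GADD45A (0.93 ± 0.14), CXCL2 (1.60 ± 0.28), CTGF (1.29 ± 0.18), KLF10 (0.77 ± 0.10) and SRSF5 (0.62 ± 0.06) were also positive in SAS, and none of these 6 genes passed the test of the difference from FaDu, which does not show that they respond alike. ZNF genes had a median of -0.12, and 19 of the 20 tested of those that fell in FaDu were negative, 7 of them past the test. PIM1 differed: it was at 135, 139 and 141 CPM in SAS controls and at 152, 139.5 and 156 CPM after RT. Its log2 fold change was 0.82 ± 0.08 in FaDu and 0.11 ± 0.06 in SAS, and it was the 1 gene of 16811 that passed the test of the difference without the block (0.72 ± 0.09, adjusted p 0.0318). No gene passed it without FaDu control 1, control 3, RT 2 or RT 3. With the block 18 genes passed, 11 of them with the larger value in FaDu, among them CYR61, DUSP1, PPP1R15A and MAFF. DUSP1 was at 65.0, 80.9 and 74.7 CPM in SAS controls and at 68.5, 64.3 and 56.7 CPM after RT, a difference between spheroid types of 1.99 ± 0.26. Spheroid type and dose cannot be told apart here.

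The same 7 Gy in FaDu spheroids that were heated was measured in separate libraries. Of 16145 tested genes, edgeR called none and DESeq2 called 7, with 361 at an unadjusted p under 0.05, of which 187 were higher (1.16%). With the block, 115 were higher (0.712%) and 39 lower. Of 204 genes that rose in unheated FaDu, 148 were positive (72.5%), 39 passed in the same direction and 2 in the other. Of 104 that fell, 52 were negative (50%) 1 passed in the same direction and 7 in the other, beside 52.7% of like sign over all genes tested in both. The immediate early list had 12 members that rose, 2 that fell and a median of 0.03, against 0.80 in unheated FaDu. ZNF genes had a median of 0.01 in heated FaDu. Of the 22 that fell in unheated FaDu, 12 were negative there and none passed as lower.

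Heated spheroids already had high levels of several of these transcripts. EGR1 was at 1718, 1691 and 1612 CPM after HT and at 1763, 1532 and 1638 CPM after HT + RT. FOS was at 1875, 1863 and 1679.95 CPM after HT and at 1834, 1625 and 1679 CPM after HT + RT, and JUN at 714, 554 and 488 CPM and at 684, 523 and 476 CPM. In none of the 3 did the heated groups separate, while both lay far above the unheated groups. KLF6, a zinc finger factor, was unlike them, at 32.9, 28.8 and 32.7 CPM after HT and at 63.8, 83.3 and 78.2 CPM after HT + RT (1.25 ± 0.11). With the block it passed in heated FaDu (adjusted p 4.05e-10), as did MAFF (9.01e-07), TNFAIP3 (5.89e-07) and the co-chaperone BAG3 (7.37e-07), and without the block none of them did. Their log2 fold changes without the block were 0.85 ± 0.30, 0.88 ± 0.27 and 0.64 ± 0.27. The difference between the unheated and heated responses passed for no gene without the block, with 541 of 16793 at an unadjusted p under 0.05, and for 10 genes with it. These included CYR61 (1.07 ± 0.15), PIM1 (0.65 ± 0.10), IER2 (1.51 ± 0.24) and SRSF5 (0.85 ± 0.11), while EGR1 and JUN missed (adjusted p 0.0963 for each).

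**Figure D5:**
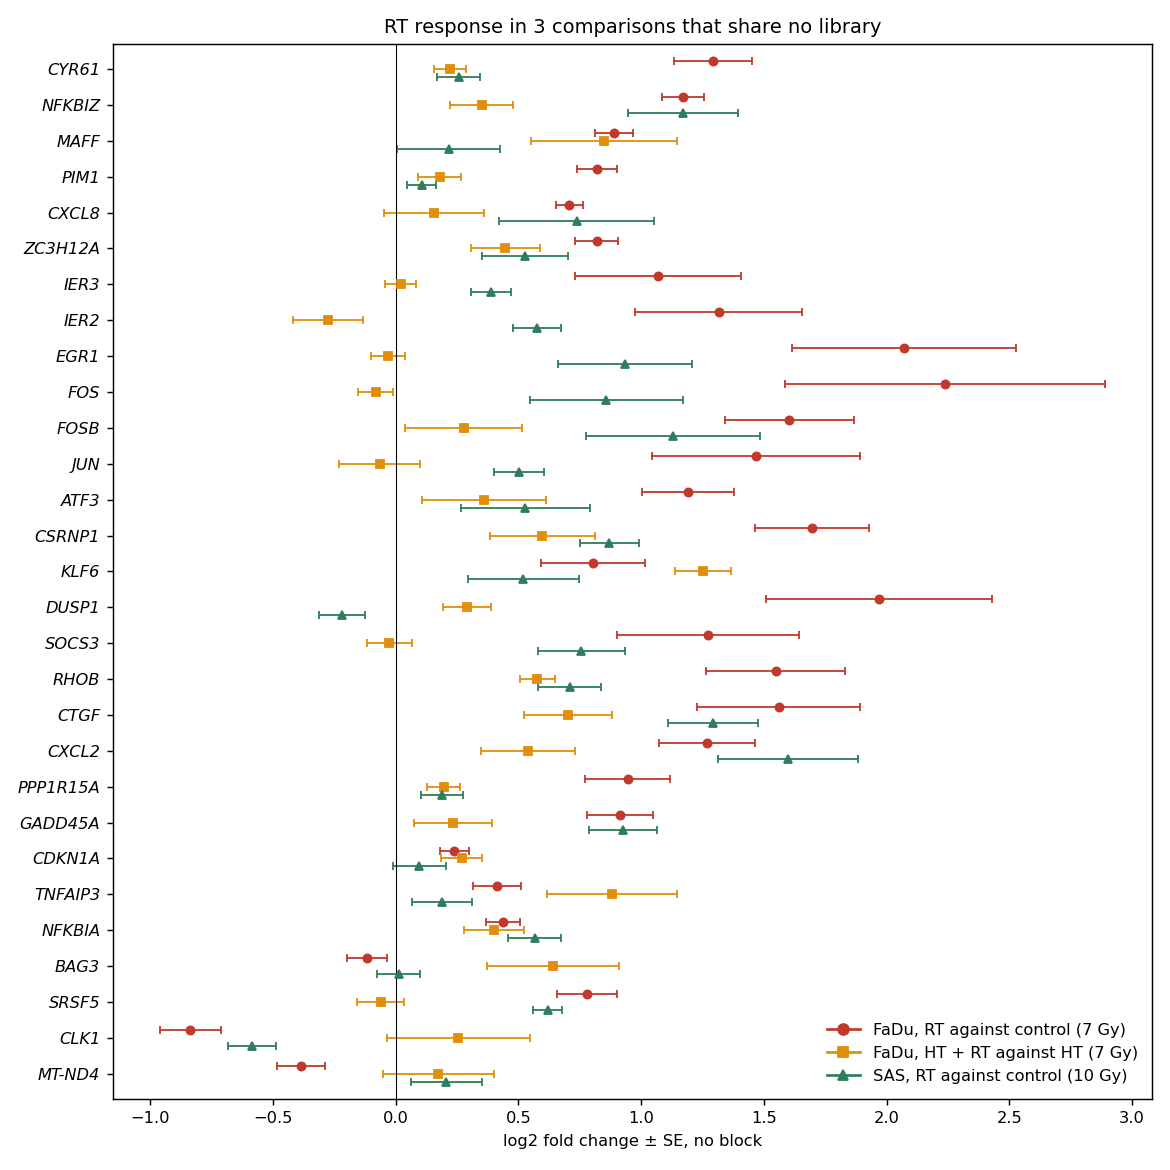
Log2 fold change after RT without the block, with bars of 1 SE, of 29 genes in FaDu (circles), heated FaDu (squares) and SAS (triangles), 3 libraries per group. NFKBIZ lies at 1.17 in FaDu and in SAS and at 0.35 in heated FaDu, PIM1 at 0.82, 0.11 and 0.18, and SRSF5 at 0.78, 0.62 and -0.06.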

How the data were processed

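Total RNA of FaDu and SAS spheroids was sequenced as directional libraries for the authors. The authors deposited, for each comparison, a table of raw counts, whole numbers of reads per Ensembl gene, and these deposited counts are the values used. Their processing notes name bcl2fastq and DESeq2, and give mm9 as the genome build although the samples and gene identifiers are human. The aligner, counting program, strand setting and annotation are not given in the sources used here. Names come from GENCODE v29, which lacked 602 identifiers with 0.0216% of the counts in the 6 libraries.

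Tests were the quasi-likelihood tests of edgeR 4.0.16 under R 4.3.3, with TMM scaling, filterByExpr at a minimum count of 10 and Benjamini-Hochberg adjustment over the 15552 genes tested. A gene is called altered where its adjusted p is under 0.05 and its change exceeds 2-fold in either direction. For the SE, the fold change on the log2 scale is divided by the root of F. CPM were scaled over the 12 FaDu or the 6 SAS libraries. Differences between responses were tested as interaction terms. Replicate number was used as a block because each same-numbered pair of libraries had a correlation of deviations over 0.1. RT 2 with control 3 (0.25) and RT 3 with control 2 (0.20) exceeded it too, so this mark does not tell 2 from 3. The sources do not state whether equal numbers share an experiment, so the pairing by number is assumed. The procedure was also run on simulated data with 200 changed genes. Its outcome is not given, and no result here rests on it. Alternatives were RLE size factors, no filter, at least 10 counts in each library, all 12 FaDu libraries in 1 fit, DESeq2 1.42.0, a test against 2-fold, the block, and each library left out.

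Genes named by rule are those with an adjusted p under 0.05 without the block and up to 30 altered with it. They include the 10 highest and 10 lowest fold changes at an unadjusted p under 0.05. These needed groups that do not overlap and a mean log2 CPM from 2 upward. List members at an unadjusted p under 0.05 in either fit are named too, as are the members a list is known by. Those members and the gene lists were chosen with earlier results of these data known. Other named genes were chosen after their values were seen. Figures were drawn with matplotlib 3.10.9 in Python 3.11.15.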

Additional observations from a re-analysis of the deposited data

Results flagged for a closer look

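Responses to RT that differed between groups by the test of the difference itself are given here as values, each the log2 fold change of 1 group minus that of the other. Without the block, PIM1 rose more in FaDu than in SAS (0.72 ± 0.09, adjusted p 0.0318). With the block it did so again (0.72 ± 0.09, adjusted p 9.07e-05), beside CYR61 (1.04 ± 0.09, adjusted p 5.79e-07) and DUSP1 (1.99 ± 0.26, adjusted p 0.000302). PPP1R15A (0.73 ± 0.10), MAFF (0.68 ± 0.10), IER3 (0.62 ± 0.11) and the kinase SGK1 (0.61 ± 0.10) also had the larger value in FaDu. For the mTOR inhibitor DDIT4 the difference was 0.60 ± 0.11: it was at 87.4, 90.1 and 82.6 CPM in SAS controls and at 67.1, 41.5 and 45.7 CPM after RT, while in FaDu the change did not pass (-0.18 ± 0.05, adjusted p 0.074). The FaDu value of DDIT4 turned with 1 library: without the block it was 0.30 without control 1, -0.69 without RT 1 and 0.08 without RT 2, and with the block and without replicate 1 it passed (-0.25, adjusted p 0.0134). SOX9 (-0.71 ± 0.10) and TNS4 (-0.41 ± 0.07) had the larger value in SAS, as had the mitochondrial transcripts MT-CO3 (-0.54 ± 0.10) and MT-ND4 (-0.57 ± 0.12), which fell in FaDu and were positive in SAS. In FaDu without the block, SOX9 was -0.05 without control 1 and -0.74 without RT 1. SGK1, SOX9, TNS4, MT-CO3 and MT-ND4 were chosen after their values were seen. Doses differed between spheroid types, and spheroid type and dose cannot be told apart.

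Between unheated and heated FaDu, the responses of IER2 (1.51 ± 0.24), CYR61 (1.07 ± 0.15), SRSF5 (0.85 ± 0.11), MIR22HG (0.81 ± 0.10), PIM1 (0.65 ± 0.10) and IER5 (0.62 ± 0.07) differed with the block, each larger in unheated spheroids. UBE2G2, a ubiquitin-conjugating enzyme, differed by 0.43 ± 0.06 and the translation-stress factor ATF4 by 0.39 ± 0.07. PPP1R10, a nuclear phosphatase subunit, differed in the other direction (-0.59 ± 0.09): it was at 139, 135 and 137 CPM in unheated controls and at 132, 111 and 122 CPM after RT, but at 52.6, 37.6 and 43.4 CPM after HT and at 63.8, 56.5 and 56.8 CPM after HT + RT. IER2 was lower in heated spheroids after RT, at 185, 165 and 140.0 CPM after HT and at 166, 123 and 118 CPM after HT + RT. SRSF5, MIR22HG, UBE2G2 and PPP1R10 were chosen after their values were seen. No gene passed this test without the block.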

How the results depend on the processing

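With edgeR and no block, 1 gene was altered, NFKBIZ, and 5 passed the adjusted p. Altered genes numbered 28 with no filter, 2 with all 12 FaDu libraries in 1 fit, 11 with DESeq2, 0 when tested against 2-fold and 28 with the block, and 0 to 8 when a library was left out. The genes past the adjusted p numbered 147, 3, 67 and 312 with no filter, 12 libraries, DESeq2 and the block, and 0 to 24 with a library left out. With the block, the 28 altered genes became 11 with DESeq2 and 18 with 12 libraries (19 to 42 without a replicate number). The 312 genes past the adjusted p became 103 and 106 (253 to 368), alternatives chosen after seeing the data. All 103 and all 106 are among the 312, and of the 312 at least 308 kept their sign in each single alternative, where 4 were not tested with at least 10 counts in each library. In heated FaDu, where edgeR altered none, the block and no filter each gave 3 and DESeq2 2, with 0 to 1 when a library was left out. In SAS, 4 became 25 with the block, 30 with no filter and 10 with DESeq2 (0 to 5). The tests of differences, 0 each, became 2 with the block for SAS and for heat, 6 and 18 with no filter, and 0 to 1 with a library left out. The cause of these differences was not tested. With 3 libraries per group and 1 time point, small or later changes were not measured. Leaving out a replicate number leaves 2 pairs, so passing in those fits does not measure how well the pairs agree.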

Other observations

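Some genes outside the lists also differed after RT with the block, and all of those named here were chosen after their values were seen. TRIB1, a pseudokinase, was at 20.7, 24.3 and 22.1 CPM in the controls and at 54.2, 35.4 and 33.2 CPM after RT (0.84 ± 0.10). PTGS2, the inducible cyclooxygenase, was at 3.63, 3.48 and 3.39 CPM and at 9.17, 6.25 and 5.53 CPM (0.96 ± 0.16). The groups of both genes were apart, with RT 1 the highest. With the block, TRIB1 did not pass with DESeq2 (adjusted p 0.184) or with all 12 FaDu libraries (0.303). With DESeq2 and no block it passed (0.000238). The receptor EPHA2 rose by 0.38 ± 0.05. HEXIM1, an inhibitor of the elongation factor P-TEFb, rose by 0.23 ± 0.05, and the mucin MUC16 by 0.97 ± 0.14, which did not pass with all 12 FaDu libraries (adjusted p 0.18). Noncoding RNAs that rose were MALAT1 (0.28 ± 0.06), SNHG1 (0.29 ± 0.07) and MIR22HG (0.62 ± 0.08). Without replicate 2, SNHG1 (0.14) and MALAT1 did not pass, and without replicate 1, HEXIM1 and MALAT1 did not. Without RT 2 and the block, MALAT1 had -0.14. HEXIM1, MALAT1 and SNHG1 did not pass with DESeq2 or with all 12 FaDu libraries.

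Among genes that fell, PARP14 was at 358, 358 and 395 CPM in the controls and at 329, 269 and 263 CPM after RT (-0.38 ± 0.06), and the receptor IL6R at 21.9, 19.1 and 20.5 CPM and at 18.01, 11.5 and 11.7 CPM (-0.60 ± 0.10). In both, every RT library lay below every control. The mTOR regulator TSC1 (-0.27 ± 0.06) and the transcription factor POU2F1 (-0.36 ± 0.08) fell by less, and neither passed without replicate 3. PARP14, TSC1 and POU2F1 did not pass with DESeq2 and the block.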
